A study of Mus musculus with 8 samples.

Results

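Matrix metalloproteinases and their tissue inhibitors were followed in pancreatic islets of mice with a knock-out of 1 gene and of wild type mice. The members were 6 metalloproteinase genes, Mmp2, Mmp3, Mmp7, Mmp9, Mmp13 and Mmp14, and 3 inhibitor genes, Timp1, Timp2 and Timp3. They were found as all probe sets annotated with these symbols or their older names, which gave 14 of the 24965 probe sets of the series. All 14 are on the Affymetrix array MG-U74A, which holds 12488 probe sets, and 0 are on MG-U74B, which holds 12477. Total islet RNA was hybridised, with 2 biological replicates of each genotype on each array type, 8 arrays in all. Strain, age, sex, and whether islets of several mice were pooled are not given in the sources used here.

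Matrix metalloproteinases are zinc endopeptidases that are made as inactive precursors, are secreted or held at the cell surface, and cut collagens, laminins, other matrix proteins and cytokines. The inhibitors bind the active site and keep this activity in check, and Timp2 also takes part in the activation of the Mmp2 precursor by Mmp14 at the cell surface. In the pancreas these genes are known mainly from stellate cells, fibroblasts, immune cells and injured epithelium rather than from resting endocrine cells.

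Each array gave 1 linear intensity per probe set. The arrays had been scaled by the authors to a mean of 250.2 on MG-U74A after the highest and lowest 2% of values were left out. Further scaling here changed each array by at most 0.00784%, and the intensities below are these scaled values. They can fall below 0, as did 18.4% to 20.5% of the values of an MG-U74A array. Such values had a median size of 28.3 to 39.2 and a 95th percentile of 200.1 to 255 on the MG-U74A arrays, a measure of the noise of a single value. Changes are given as knock-out minus wild type on the scale log2(intensity + 25), with values below 0 set to 0, which makes the change of a dim gene smaller than its ratio of intensities. Probe sets with a mean of at least 62.5 over the 4 arrays were tested with limma, with p-values adjusted by the Benjamini-Hochberg method over the 7516 tested probe sets and a threshold of 0.05. For Gapdh, the 3′ intensity divided by the 5′ intensity, which is higher where RNA is less complete, was 0.937 to 0.949 on the knock-out arrays and 3.15 to 3.22 on the wild type arrays of MG-U74A. The same ratio for actin was 1.12 to 1.16 on the knock-out arrays and 1.45 to 1.47 on the wild type arrays. The part of RNA quality in the results below was not tested.

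Mmp3, Mmp7 and Mmp13 lie in one block on chromosome 9, and their promoters are printed here because the values of all 3 genes were higher in knock-out islets without overlap. The promoter of Timp1 is printed beside them as that of the inhibitor with the largest change. Each sequence runs from 250 bases before the start of the gene to 50 bases after it, was taken from RefSeq with the build GRCm38.p6, and is on the plus strand. Capitals mark the letters of 3 searched motifs. These are TGAGTCA or its other strand TGACTCA (AP-1), AGGAAG or its other strand CTTCCT (the PEA3 form of the ETS motif), and TATAAA on the strand of the gene.
Mmp3, chr9:7445572-7445871: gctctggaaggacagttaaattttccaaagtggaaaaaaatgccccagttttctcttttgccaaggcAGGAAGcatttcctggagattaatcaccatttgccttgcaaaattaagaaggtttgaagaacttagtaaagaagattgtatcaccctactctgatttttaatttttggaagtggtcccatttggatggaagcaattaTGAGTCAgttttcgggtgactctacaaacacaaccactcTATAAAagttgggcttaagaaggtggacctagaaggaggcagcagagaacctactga
Mmp7, chr9:7691840-7692139: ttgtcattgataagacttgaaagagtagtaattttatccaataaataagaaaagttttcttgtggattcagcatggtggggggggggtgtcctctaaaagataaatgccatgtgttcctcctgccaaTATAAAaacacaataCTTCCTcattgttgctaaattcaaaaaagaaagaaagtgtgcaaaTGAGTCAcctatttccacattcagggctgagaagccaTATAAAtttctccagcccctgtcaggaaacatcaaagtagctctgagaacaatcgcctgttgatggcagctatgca
Mmp13, chr9:7272264-7272563: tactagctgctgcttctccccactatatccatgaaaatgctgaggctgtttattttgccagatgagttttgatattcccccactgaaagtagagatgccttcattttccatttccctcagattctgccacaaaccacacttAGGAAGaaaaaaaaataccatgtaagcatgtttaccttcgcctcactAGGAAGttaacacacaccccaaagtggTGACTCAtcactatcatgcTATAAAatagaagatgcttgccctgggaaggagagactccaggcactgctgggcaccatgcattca
Timp1, chrX:20869916-20870215: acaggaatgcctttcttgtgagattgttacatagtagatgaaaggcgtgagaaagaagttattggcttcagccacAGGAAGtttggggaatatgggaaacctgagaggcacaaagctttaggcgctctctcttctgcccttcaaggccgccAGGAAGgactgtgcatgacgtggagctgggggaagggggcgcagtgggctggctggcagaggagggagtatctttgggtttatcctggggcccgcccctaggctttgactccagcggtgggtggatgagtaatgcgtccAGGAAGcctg

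The promoters of Mmp3, Mmp7 and Mmp13 each held the AP-1 letters, with the first base 46, 63 and 35 bases before the start. Of all 32851 promoters in the same set, 5.20% held these letters. The same 3 promoters held TATAAA, found in 8.32% of all promoters. RefSeq promoters were at hand for 7 of the 9 genes, and Mmp2 and Mmp9 could not be searched. The 7 genes had 8 windows, since Mmp7 had a second start whose window held neither of these motifs. The windows of Mmp14, Timp1, Timp2 and Timp3 also held neither. The letters AGGAAG or CTTCCT were in 7 of the 8 windows, among them 3 copies in that of Timp1, against 35.4% of all promoters. A match of letters does not show that a factor binds there. Only exact letters were searched, so a window without them may still hold a variant of the motif.

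Of the 14 probe sets, 8 passed the filter, and they stand for 7 genes. In knock-out islets 5 of these 8 rose and 0 fell by limma, with 0 lower at an unadjusted p under 0.05 as well. Over all tested probe sets of MG-U74A, 52.9% were called, 23.9% as higher and 29% as lower in knock-out. The 5 were Mmp9, Mmp3, Timp1, Mmp13 and Mmp14, so each of the 4 tested metalloproteinases rose and 1 of the 3 tested inhibitors did. Each of the 8 also had a wild type mean above the filter value, so none was tested through its knock-out level alone. The median log2 change of the 8 was 0.50, beside -0.09 over all tested probe sets. In a fit without the filter, 5 of the 14 were called higher in knock-out, beside 13.9% of all probe sets, and 1 was called lower, where 29% were called in either direction. These were not the same 5 probe sets. Mmp13 was not called there (limma adjusted p = 0.0980), and Mmp7 was (0.00434), with both of its wild type values set to 0. Knock-out and wild type arrays did not overlap for 11 probe sets that were higher in knock-out and 1 that was lower. Of all probe sets without the array controls, 69.7% did not overlap, and 33.6% were higher in knock-out. All 8 tested probe sets were higher without overlap, where 79.1% of all tested probe sets did not overlap and 35.2% were higher.

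**Figure D1:**
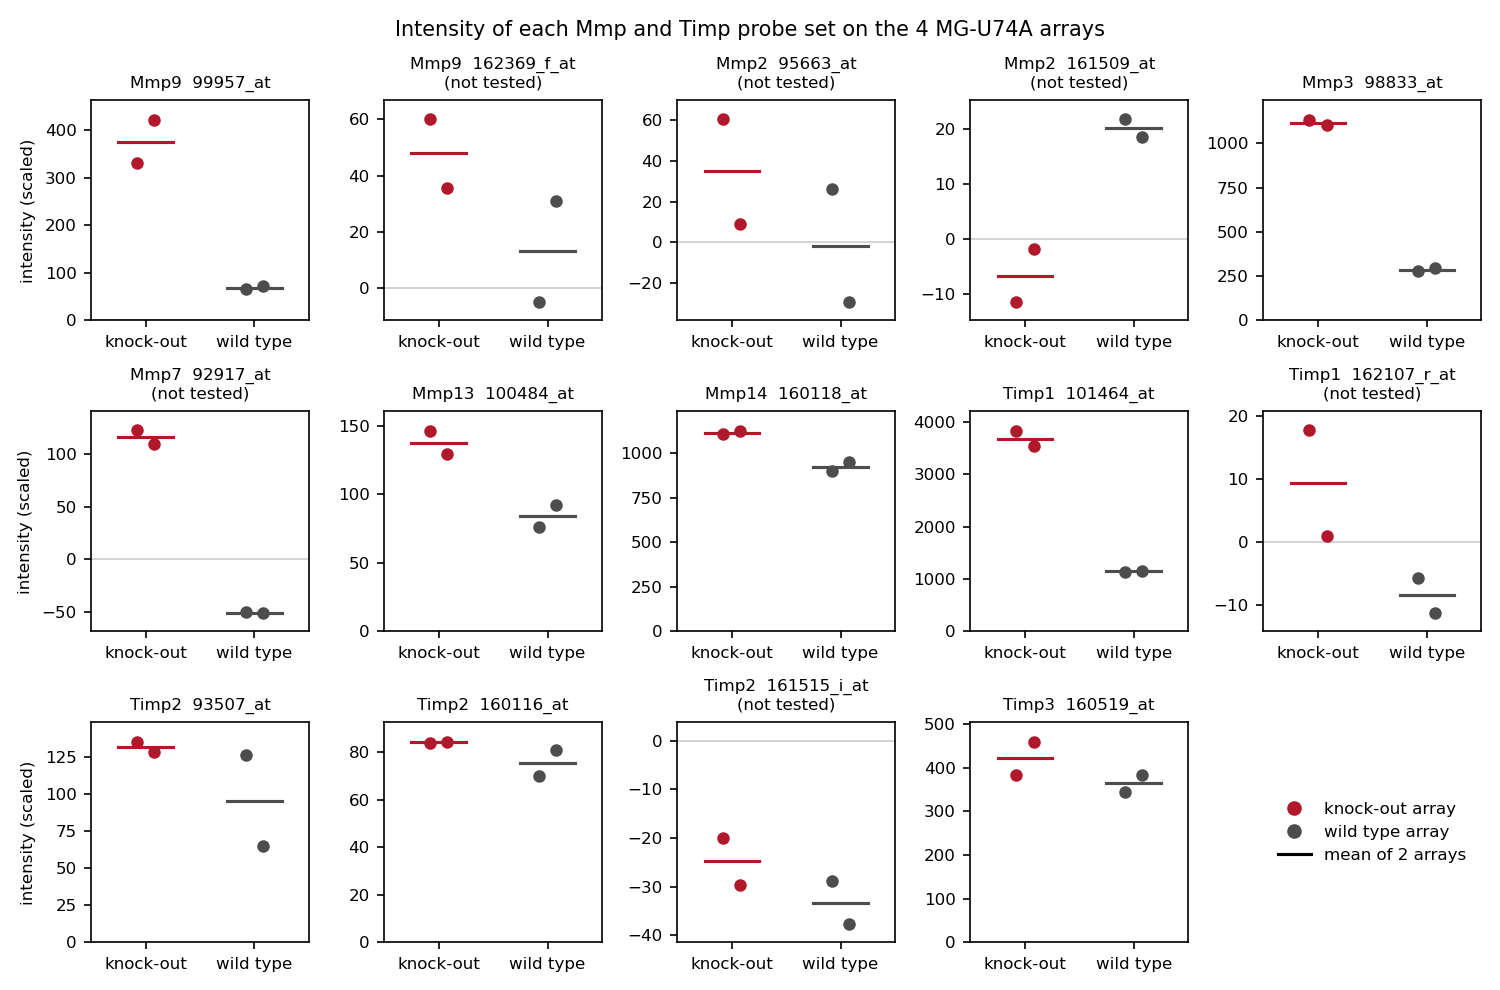
Scaled intensity of each of the 14 probe sets (vertical axis, its own range in each panel) on the 2 knock-out and 2 wild type MG-U74A arrays, with a bar at the mean of each genotype. The separation is widest for Mmp9, Mmp3 and Timp1, where both knock-out arrays are at more than 3 times the wild type arrays, while the Mmp2 panels lie near 0.

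The gelatinases Mmp9 and Mmp2 cut denatured collagen and the type IV collagen of basement membranes. Mmp9, which neutrophils and macrophages release, had intensities of 331 and 420.5 on the knock-out arrays (probe set 99957_at), against 65.5 and 72.2 on the wild type arrays. The knock-out arrays were both far above the wild type pair and differed between themselves more than the wild type arrays did. The means were 376 ± 63.2 in knock-out and 68.9 ± 4.74 in wild type (SD, n = 2), a 5.46-fold ratio. The knock-out values lay above the range of the noise of a single value, but both wild type values lay within it. The size of this ratio is therefore uncertain. On the log2 scale Mmp9 rose by 2.09 ± 0.16 (SE), with limma adjusted p = 0.00130. A second Mmp9 probe set, 162369_f_at, whose suffix marks probes shared within a gene family, gave 60.3 and 35.5 in knock-out, against -5.00 and 31.1 in wild type. Its values were higher in knock-out without overlap, lay in the range of the noise, and were too low to be tested.

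Mmp2, which fibroblasts and stellate cells secrete, was not measured above the noise by either of its probe sets. Probe set 95663_at gave 60.7 and 9.10 in knock-out islets, against 26.2 and -29.2 in wild type islets, and the genotypes overlapped. Probe set 161509_at gave -11.5 and -1.90 in knock-out, against 21.9 and 18.6 in wild type. Without the filter the second was lower in knock-out by limma (adjusted p = 0.00663), but the genotype means differed by less than the median size of the values below 0 on each of the 4 arrays. No direction for Mmp2 is drawn from these values.

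Stromelysin 1, the product of Mmp3, cuts many matrix proteins and activates other metalloproteinase precursors. Mmp3 had 1131 and 1104 on the knock-out arrays, against 282 and 293 on the wild type arrays. Within each genotype the arrays were close, and the knock-out pair stood well apart from the wild type pair. The means were 1117 ± 18.9 in knock-out and 287 ± 8.35 in wild type (SD, n = 2), a 3.89-fold ratio. Mmp3 rose by 1.87 ± 0.06 on the log2 scale (limma adjusted p = 1.90e-04).

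Matrilysin, encoded by Mmp7, is the small metalloproteinase of glandular epithelium and lacks the hinge and hemopexin parts of most of the family. It gave 124 and 110.2 in knock-out islets, against -50.5 and -51.1 in wild type islets. Both knock-out arrays were above 0 and both wild type arrays below it, a difference of 168 units. Its mean over the 4 arrays was 33.0, so it was not tested with the others. In the fit without a filter its log2 change was 2.50 ± 0.10 (limma adjusted p = 0.00434), a size that depends on the constant added, since the wild type values were set to 0 and have no spread. The knock-out level was below the 95th percentile of the size of values below 0 on each of the 4 arrays.

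Collagenase 3, the product of Mmp13, is the main secreted enzyme of the mouse that cuts fibrillar collagen. Mmp13 had 146 and 129.7 in knock-out islets, against 75.9 and 92.1 in wild type islets. The lowest knock-out array was above the highest wild type array, by less than for Mmp9 or Mmp3. The means were 138 ± 11.6 in knock-out and 84.0 ± 11.5 in wild type (SD, n = 2), a 1.64-fold ratio. The values of all 4 arrays lay in the range of the noise of a single value, so the size of this ratio is uncertain. The log2 change of 0.58 ± 0.17 passed the threshold narrowly (limma adjusted p = 0.0471). This call ended when any 1 of the 4 arrays was left out (adjusted p from 0.0677 to 0.217), with no filter (0.0980) and with the replicate number as a block (0.0964).

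Mmp14, the membrane-anchored collagenase that activates the Mmp2 precursor, had 1109 and 1124 in knock-out islets, against 901 and 949.6 in wild type islets. The arrays of each genotype were close and the genotypes did not overlap. Its means were 1116 ± 11.1 in knock-out and 925 ± 34.5 in wild type (SD, n = 2), a 1.21-fold ratio that was the smallest among the 5 called probe sets. It rose by 0.26 ± 0.05 on the log2 scale (limma adjusted p = 0.0133). The call ended without wild type replicate 1 (adjusted p = 0.108), without wild type replicate 2 (0.0646) and without a variance trend (0.0507).

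Among the inhibitors, Timp1, which blocks most secreted metalloproteinases, had 3823 and 3540.1 in knock-out islets, against 1139.8 and 1162 in wild type islets. Both knock-out arrays were far above both wild type arrays. The means were 3681 ± 199.8 in knock-out and 1151 ± 15.7 in wild type (SD, n = 2), a 3.20-fold ratio. Timp1 rose by 1.66 ± 0.05 on the log2 scale (limma adjusted p = 1.92e-04). Its second probe set, 162107_r_at, gave 17.9 and 0.900 in knock-out, against -5.70 and -11.3 in wild type, too low to be tested.

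Timp2, the inhibitor that pairs with Mmp14, did not pass the threshold on either tested probe set. Probe set 93507_at gave 135 and 128 in knock-out, against 126 and 64.8 in wild type, and the wild type arrays differed from each other more than the genotypes did. Its log2 change was 0.43 ± 0.30 (limma adjusted p = 0.291), between 0.05 and 0.80 over the alternative settings, the extremes coming with wild type replicate 2 and wild type replicate 1 left out. Probe set 160116_at gave 84.0 and 84.1 in knock-out, against 69.8 and 80.9 in wild type, with a change of 0.12 ± 0.18 (adjusted p = 0.592). The third probe set, 161515_i_at, was below 0 on all 4 arrays and gave no change. Timp3, the inhibitor that stays bound to the matrix, had 384 and 458 in knock-out islets, against 345 and 383 in wild type islets. The lower knock-out array was barely above the higher wild type array, and the change of 0.19 ± 0.12 did not pass the threshold (adjusted p = 0.228). These misses do not show that Timp2 and Timp3 were at equal levels in both genotypes.

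**Figure D2:**
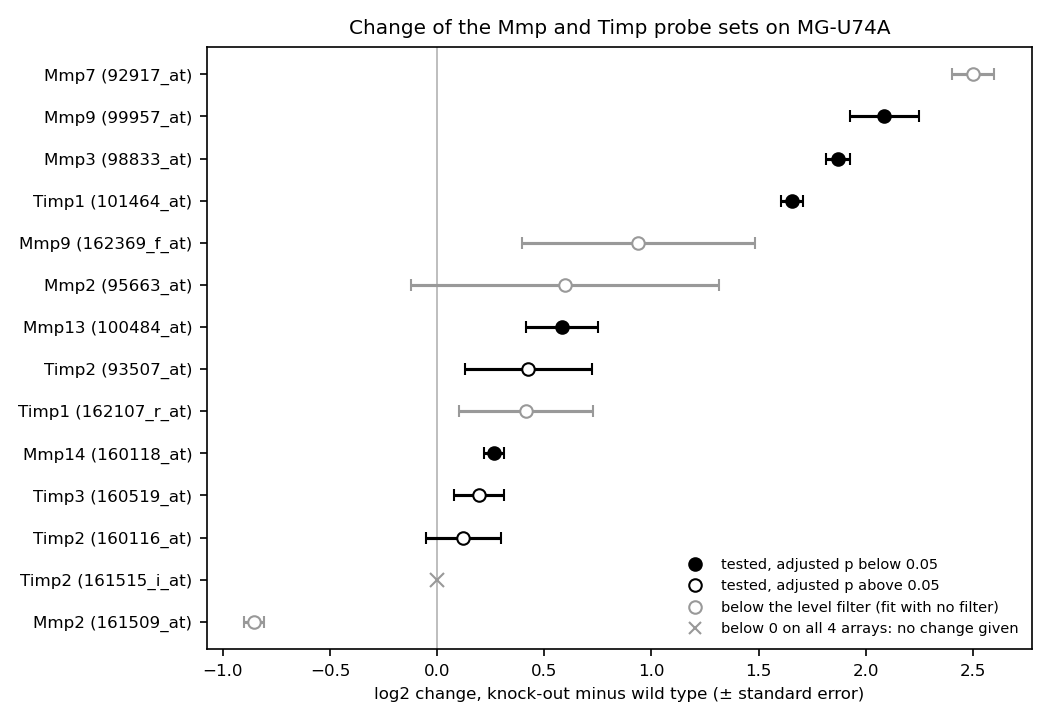
Log2 change of each probe set, knock-out minus wild type (horizontal axis), with its standard error from limma, where a cross marks a probe set below 0 on all 4 arrays. Filled points passed the threshold, open black points did not, and grey points were below the level filter and come from the fit without one. Mmp9, Mmp3 and Timp1 lie above 1.5, and the other tested probe sets lie between 0.12 and 0.58.

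Mmp9 and Mmp3 differed by 0.22 ± 0.17 on the log2 scale, which is within 2 standard errors, and Timp1 was 0.22 ± 0.08 below Mmp3. This order depended on the constant added: with 100 in its place the changes were 1.65 for Mmp3, 1.60 for Timp1 and 1.49 for Mmp9, and no neighbours among them differed by more than 2 standard errors. Without either wild type array the gap between Mmp3 and Timp1 was also within 2 standard errors, and without knock-out replicate 1 Mmp9 was 0.39 ± 0.13 above Mmp3. Mmp13 was 1.07 ± 0.18 below Timp1. From Mmp13 down to Timp2 no neighbours in the order differed by more than their errors. These errors treat the probe sets as independent, although they share the same 4 arrays.

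**Figure D3:**
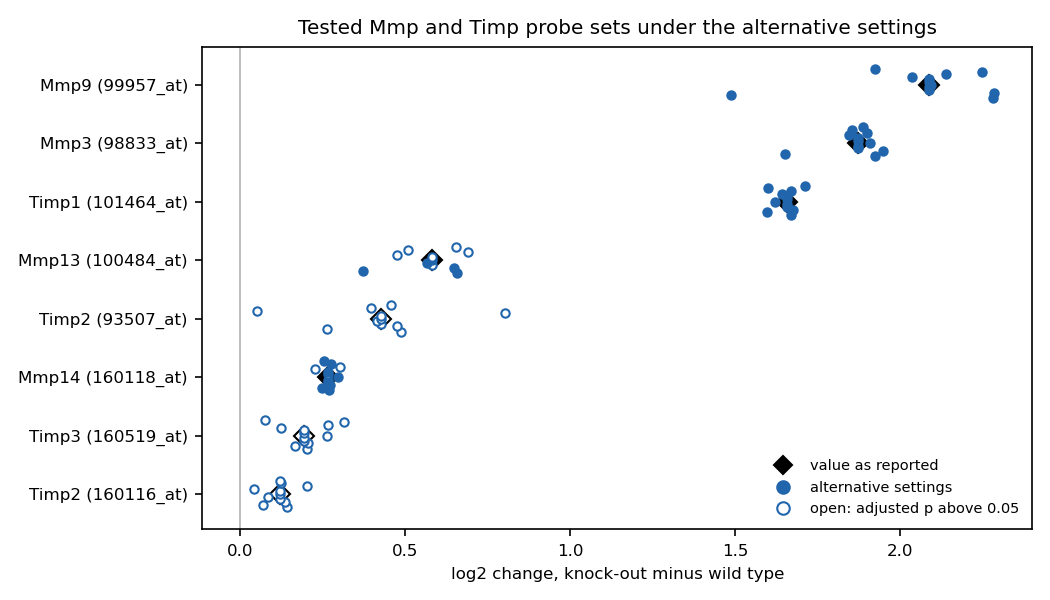
Log2 change of each tested probe set, knock-out minus wild type (horizontal axis), as reported (diamond) and under each alternative setting that tested it (circles). Open symbols have an adjusted p above 0.05. Mmp9, Mmp3 and Timp1 passed under every setting shown, Mmp13 and Mmp14 under some, and Timp2 and Timp3 under none, and no change turned its sign.

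The block on chromosome 9 holds 10 protein-coding genes, all of them metalloproteinases, in the order Mmp13, Mmp12, Mmp1b, Mmp3, Mmp1a, Mmp10, Mmp8, Mmp27, Mmp20 and Mmp7. Probe sets were found for 7 of the 10. Mmp12, the macrophage elastase next to Mmp13, was higher in knock-out on both probe sets, by 1.20 ± 0.13 (95338_s_at) and 0.58 ± 0.08 (95339_r_at), with limma adjusted p = 0.00325 and 0.00531. Its values were 378 and 347 in knock-out, against 130.1 and 159 in wild type, on the first of these. Those wild type values lay in the range of the noise of a single value, and the probe sets differed in the size of the change. Mmp10, the second stromelysin, gave 118 and 156 in knock-out, against 103 and 101 in wild type, and did not pass the threshold (0.34 ± 0.18, adjusted p = 0.183). Mmp8, the neutrophil collagenase, was below 0 on all 4 arrays. Mmp27, on MG-U74B, gave 35.6 and 76.5 in knock-out, against 56.2 and 72.5 in wild type, and overlapped. Within the block, Mmp3 had a 3.89-fold ratio of knock-out over wild type while Mmp8 had no measurable level.

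**Figure D4:**
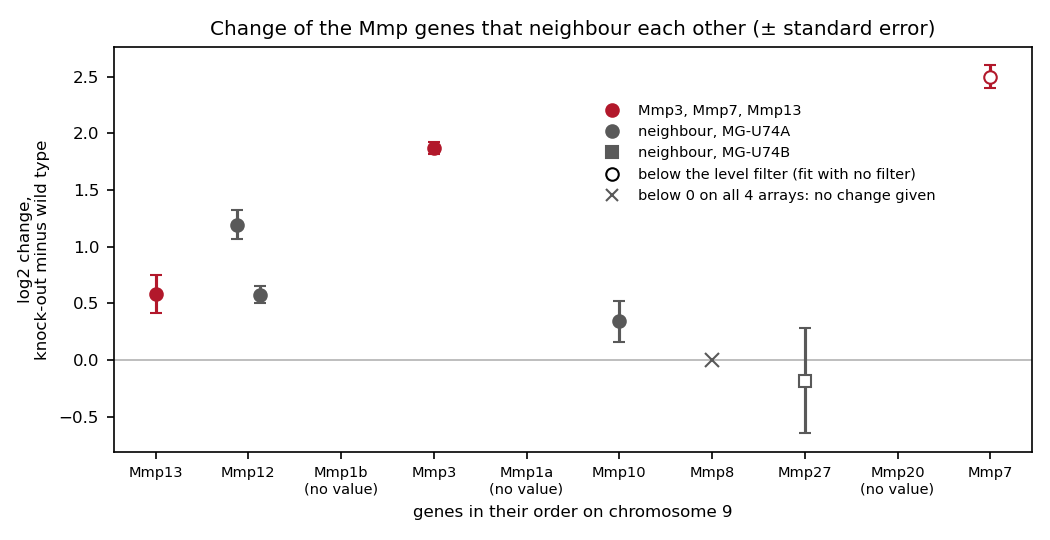
Log2 change, knock-out minus wild type, with its standard error (vertical axis) of the metalloproteinase genes of chromosome 9 in their order along it, with 2 points for the 2 probe sets of Mmp12. Open symbols were below the level filter and crosses mark a gene below 0 on all 4 arrays. Mmp7, from the fit without a filter, and Mmp3 have the largest changes, and Mmp10 and Mmp27 have small ones.

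Other genes of the family and its partners were read from lists, each gene by its probe set with the highest mean. Of all 5707 genes tested this way on MG-U74A, 22.7% rose and 30.2% fell. Of 3 tested further metalloproteinases on MG-U74A, 2 rose, Mmp12 and Mmp11. Mmp11, a metalloproteinase of stromal cells, had 698 and 881 in knock-out, against 549 and 564 in wild type, a rise of 0.48 ± 0.12 (limma adjusted p = 0.0354). The Mmp11 call ended without wild type replicate 1 (limma adjusted p = 0.136) or wild type replicate 2 (0.121). On MG-U74B, where 17.5% of tested probe sets were called, 8.59% as higher and 8.87% as lower, Mmp23 had 1722 and 1518 in knock-out, against 717 and 776 in wild type. It rose by 1.09 ± 0.13 (limma adjusted p = 0.0107). Leaving out knock-out replicate 1 (adjusted p = 0.0565), wild type replicate 1 (0.110) or wild type replicate 2 (0.108) ended this call. Mmp28, the other tested gene of the list there, overlapped between genotypes.

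Of 6 tested genes of the plasminogen system, whose product plasmin activates several metalloproteinase precursors, 3 rose and 0 fell. Serpinb2, an inhibitor of urokinase, had 359.8 and 327 in knock-out, against 56.0 and 22.8 in wild type, and rose by 2.56 ± 0.30 (limma adjusted p = 0.00396). Plaur, the urokinase receptor, rose by 0.77 ± 0.16 and Plat, tissue plasminogen activator, by 0.77 ± 0.12. The wild type values of Serpinb2 and Plaur lay in the range of the noise of a single value, so the size of their rises is uncertain. Plau, urokinase itself, gave 66.7 and 86.8 in knock-out, against 99.1 and 78.6 in wild type, and overlapped. Furin, which trims the Mmp14 precursor and had the highest mean of the list, was at -0.16 ± 0.12 and did not pass. Without wild type replicate 2 the count of rises was 1, and without wild type replicate 1 it was 2. Of 7 tested Adam and Adamts proteases 2 rose, Adam8 (1.95 ± 0.15) and Adam19 (1.11 ± 0.26), and Adam9 fell by 0.66 ± 0.09. The share that rose, 28.6%, was near that over all genes. The wild type values of Adam8 and all values of Adam19 lay in the range of the noise of a single value. Without wild type replicate 2 neither Adam19 nor Adam9 passed (limma adjusted p = 0.105 and 0.0574), and without knock-out replicate 1 or 2 Adam19 did not (0.0682 and 0.0979). With the replicate number as a block Adam19 had an adjusted p of 0.0523, which left 1 rise.

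Of 15 tested genes for proteins that the family cuts, 13 rose and 1 fell, Col1a2, with a median of 0.85 beside -0.12 over all genes. The Col1a2 change of -0.34 ± 0.05 was read from a probe set with the suffix _r_at rather than the plain _at. Without wild type replicate 1 or 2 the Col1a2 change was -0.35 or -0.33 and did not pass the threshold. The fall of Col1a2 is therefore uncertain, and Col1a1 rose by 1.32 ± 0.05. Dcn, the collagen-binding proteoglycan decorin, rose by 2.12 ± 0.04, and Col3a1, a fibrillar collagen, by 1.92 ± 0.09. Fn1, fibronectin, had 1282 and 1261 in knock-out, against 451 and 449.7 in wild type, and rose by 1.45 ± 0.05. The basement membrane collagens Col4a1 and Col4a2, substrates of Mmp9, rose by 0.44 ± 0.03 and 0.70 ± 0.11. Without wild type replicate 1 or 2 the count of rises was 9 or 10.

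Inducers, transcription factors and binding partners of the family went both ways, with 4 rises and 4 falls of 15 tested and a median of 0.02, which is 26.7% in each direction and near the shares over all genes. Il1b, a cytokine that induces Mmp3 and Mmp9, had 261 and 178 in knock-out, against 29.8 and 34.5 in wild type, and rose by 2.08 ± 0.24 (limma adjusted p = 0.00367). Its wild type values and its value on knock-out replicate 2 lay in the range of the noise of a single value. The size of this rise is therefore uncertain. Among the ETS factors, Ets1 rose by 1.54 ± 0.11 and Ets2 fell by 1.43 ± 0.08. The AP-1 subunits Jund, Fos and Jun fell by 0.40 ± 0.03, 0.49 ± 0.06 and 0.62 ± 0.17, and Jund had the highest mean of the list. The wild type values of Ets1 and the knock-out values of Jun also lay in the range of the noise. Junb, Fosl1 and Fosl2 did not pass the threshold there. Without wild type replicate 1 the list had 2 rises and 4 falls, and without wild type replicate 2 it had 2 rises and 2 falls. Jun passed in neither (limma adjusted p = 0.172 and 0.141).

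**Figure D5:**
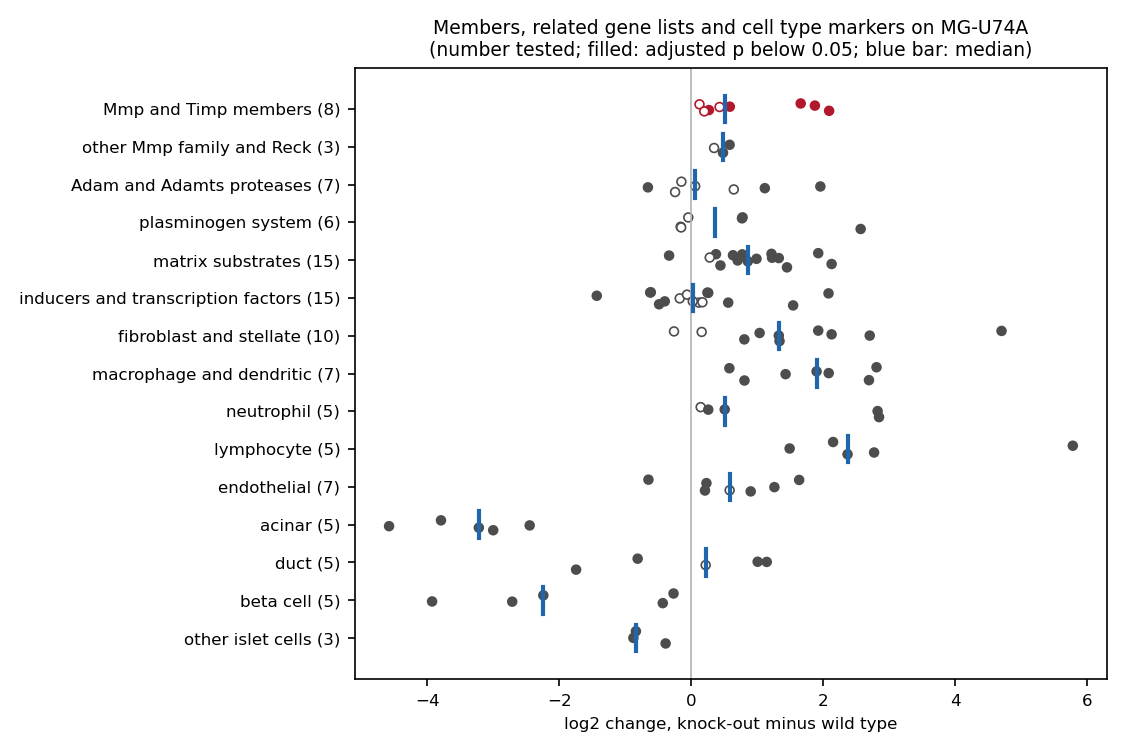
Log2 change, knock-out minus wild type (horizontal axis), of the tested Mmp and Timp probe sets, of the genes of related lists and of cell type markers on MG-U74A, with the number tested after each name. Filled points passed the threshold and the blue bar is the median, which is 0.50 for the members, 0.85 for matrix substrates, 1.33 for fibroblast and stellate markers and -3.22 for acinar markers.

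Most tested markers of fibroblasts, immune cells and endothelial cells were higher in knock-out on the same arrays. Of 10 tested fibroblast and stellate markers 8 rose and 0 fell. Vim was lower in knock-out without overlap but did not pass (-0.26 ± 0.12), and Pdgfra overlapped between genotypes. The summed intensity of the 10 markers was 16002 to 17314 in knock-out and 4649 to 4742 in wild type. Dcn, Col3a1 and Col1a1 held most of these sums and are also in the list of proteins that the family cuts. Acta2 was below 0 on both wild type arrays. All 7 tested of 9 macrophage and dendritic markers rose, with sums of 6660.3 to 6848 in knock-out and 2009 to 2066 in wild type. Adgre1 was below 0 on knock-out replicate 1 and Itgam on both wild type arrays. Of 8 neutrophil markers 5 were tested and 4 rose, with sums of 4369 to 4519 in knock-out and 2667 to 2736 in wild type, and Ngp was below 0 on all 4 arrays. Without wild type replicate 1 or 2 the count of neutrophil rises was 2. All 5 tested lymphocyte markers rose, with sums of 18557 to 19699 in knock-out and 3703 to 3759 in wild type, most of them held by Ighm. Cd79a was below 0 on both wild type arrays and Cd3e on all 4 arrays. Endothelial markers had 5 rises and 1 fall of 7, and 1 rise without wild type replicate 1 or 2, with sums of 2432 to 2469 in knock-out and 1966 to 1986 in wild type.

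The markers of exocrine and endocrine cells moved the other way or in both directions. All 5 tested acinar markers fell, with sums of 4207 to 4678 in knock-out and 34939.6 to 35169 in wild type. Duct markers had 2 rises and 2 falls of 5, with sums of 3837 to 3922 in knock-out and 5484 to 5927 in wild type. All 5 tested beta cell markers fell, with sums of 41387 to 45983 in knock-out and 58078 to 58865 in wild type, and 2 of them passed without wild type replicate 2. Ins2 and Iapp held most of the beta cell sums. Pdx1 was below 0 on knock-out replicate 2, as was the acinar marker Clps. All 3 markers of other islet cells, the hormone genes Gcg, Sst and Ppy, fell, with sums of 36614 to 40176 in knock-out and 60299 to 60517 in wild type, and 2 passed without wild type replicate 1 or 2. In RNA of whole islets a changed number of cells of a type and a changed RNA content per cell cannot be told apart. The part of these cell types in the changes of the members was not tested.

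By distance between centred log2 values over the 4 arrays, among 6732 tested probe sets with 1 symbol, the genes nearest to Timp1 were S100a6, a calcium-binding protein (distance 0.0197), Eef1a1, an elongation factor (0.0347), and Nde1 (0.0368). S100a6 had 3528 and 3287 in knock-out, against 1059.6 and 1061 in wild type. Nearest to Mmp14 were Ifnar2 (0.0151), Ptpa (0.0188) and Smu1 (0.0275), of which Ifnar2 did not pass the threshold (limma adjusted p = 0.103). With 2 arrays a genotype, such nearness describes the size of the change and the order of the replicates.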

How the data were processed

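The authors deposited 1 linear intensity for every probe set of an array. The trimmed means of the arrays, 250.1 to 250.2, show that they had been scaled to a common level. The software and the settings are not given in the sources used here. Each array was scaled to the average trimmed mean of its type (2% left out at each end), values below 0 were set to 0, and log2(value + 25) was taken. Knock-out and wild type were compared within each array type with lmFit and eBayes with a variance trend (limma 3.58.1, R 4.3.3), two-sided and without a replicate block, on probe sets with a mean of at least 62.5 (25% of the trimmed mean), without the 66 control probe sets. The procedure was also run on simulated data with independent noise and few changed probe sets. Many probe sets were called in the real data, so that run does not bear on the calls above.

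Symbols came from the array annotation and were updated by gene identifier (GRCm38.p6). On MG-U74A 10855 probe sets had 1 symbol, 396 several and 1237 none. Every member probe set is described. From each related list the text names up to 4 called genes with the largest change and the gene with the highest mean, besides others chosen after their values were seen. The members and lists were chosen with earlier results of these data known. The knocked-out gene is not reported here.

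The smallest p of an exact permutation test with 2 arrays a genotype is 0.333. The p-values therefore rest on limma's pooling over probe sets, and reflect how far these arrays vary, part of which may be technical. Same-numbered replicates did not deviate together (correlation of deviations 0.0241 for MG-U74A, 0.0316 for MG-U74B). The alternatives changed the constant, the floor, the filter, the scaling, the variance trend, the block and the arrays used. The number of arrays limits the precision.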

Additional observations from a re-analysis of the deposited data

How the results depend on the processing

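Mmp3, Mmp9 and Timp1 rose under each of the 12 alternatives run, with log2 changes of 1.65 to 1.95, 1.49 to 2.28 and 1.60 to 1.71. Mmp13 lost its call under 6 of 11 and Mmp14 under 3 of 12, and no member's change reversed. Leaving out 1 array left 3 to 4 of the 5 higher member probe sets, 3 without either wild type array. Without the filter 1 member probe set was lower (Mmp2, 161509_at), where 0 were before. Leaving out 1 array gave 2264 to 4097 called probe sets on MG-U74A, against 3974. On MG-U74B 1372 were called, 764 without the filter, 638 without the variance trend and 0 to 538 with 1 array left out. The counts of 0 by limma, without either wild type array, stood beside 1873 and 1817 at an unadjusted p under 0.05. With 1 array left out, the lone array is assumed to vary like the others. The replicate block ended the Mmp13 call among the members and left 4 of 5. With it, 3628 probe sets of MG-U74A and 1207 of MG-U74B were called. The labels do not say whether the replicate numbers pair the arrays. Alternatives for members on MG-U74B were not run, since no member has a probe set there, and Mmp13 and Timp2 had no value at a filter of 50% of the trimmed mean. Levels near 0 limit Mmp2, Mmp7 and the dim probe sets of Mmp9, Timp1 and Timp2. The cause of these dependences was not tested.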
